A study of Mus musculus with 36 samples.

Results

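Mouse Cd36 and 9 other genes of fatty acid uptake and handling were followed in the stromal cells of human oral tumours grown in mice. The 10 genes were chosen by name: Cd36, Lpl, Ldlrad3, the transporters Slc27a1, Slc27a3 and Slc27a4, the binding proteins Fabp3, Fabp4 and Fabp5, and the droplet protein Plin2. Of these, 9 had at least 1 probe set among the 17097 genes that the array annotation names, with 16 probe sets in all that list 1 gene, and Ldlrad3 was not analysed here. All 9 also lay above the filter on low values that left 12823 genes for testing. The samples were 36 mouse arrays of the stromal fraction labelled neural, isolated from orthotopic xenografts in immunodeficient NSG (NOD-SCIDγ) hosts whose age is not stated. The injected tumour cells were the established oral carcinoma line SCC25 or the line labelled VDH15, and they carried a non-targeting shRNA (PLKO) or an shRNA against CD36 (shCD36). Hosts ate control chow or chow enriched in palmitic or in oleic acid. In a first VDH15 experiment only the non-targeting shRNA was used, with 4 arrays on each of the 3 diets. In an SCC25 and a second VDH15 experiment the 2 shRNAs were crossed with control and palmitate diet, at 3 arrays per group. The labels call the arrays of a group technical replicates, so each of the 11 groups counts as 1 biological replicate: n = 3 for palmitate against control diet in tumours with the non-targeting shRNA, n = 2 for comparisons with shCD36 and n = 1 for oleate. The labels do not say whether arrays within a group stem from separate animals, so the spread among them may be technical. The shRNA acted in the human tumour cells. The mouse Cd36 probe sets are taken here to report the host gene and are no check of the knockdown. Whether human RNA adds to the signal of mouse probe sets was not tested.

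Long-chain fatty acids reach cells bound to albumin or inside lipoproteins. Lipoprotein lipase (Lpl) frees them from triglyceride at the vessel wall, the scavenger receptor CD36 and the transport proteins of the Slc27 family bring them across the plasma membrane and help to trap them as acyl-CoA, and fatty acid binding proteins carry them within the cell. Perilipin 2 (Plin2) coats the droplets in which the excess is stored. CD36 and FABP4 are known from capillary endothelium, adipocytes and macrophages, and FABP5 from keratinocytes. Several of these genes are textbook targets of the peroxisome proliferator-activated receptors (PPARs), which bind fatty acids. Expression is given as log2 intensity, on which a difference of 1 is a 2-fold change.

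The fraction was a mixture by its markers. The mean of the keratinocyte markers lay between 9.59 and 10.59 log2 in the 11 groups, that of the endothelial markers between 7.81 and 9.82, that of the fibroblast markers between 7.96 and 9.79 and that of the macrophage markers between 5.54 and 6.90. Schwann cell markers lay between 6.53 and 6.74 and neuron markers between 5.27 and 5.50, and the neurofilament genes Nefl, Nefm and Nefh were below the filter. Adipocyte markers stayed between 5.22 and 5.34, with Adipoq (mean 3.87) and Lep (mean 4.34) below the filter level of 5.19. On the first principal component 3 palmitate arrays of non-targeting tumours stood apart with scores of 60.6 to 81.3, replicates 1 and 2 of the first and replicate 1 of the second VDH15 experiment, against 21.1 to 31.8 for the other palmitate arrays of such tumours. Levels of different experiments are side by side only after an adjustment for batch that the deposited values already carried. In bulk samples like these, fewer cells of a type and less RNA per cell cannot be told apart.

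The first comparison asked how the fatty acid uptake genes of the host stroma differed between palmitate and control diet in non-targeting tumours. Averaged over the 3 experiments, Fabp4, Cd36, Lpl and Plin2 were higher on palmitate, Fabp5 and the 3 Slc27a transporters were lower, and Fabp3 barely moved. No member passed the threshold: 0 of the 9 had an adjusted p under 0.05 (limma), against 6.92% of all genes tested, 3.65% higher and 3.27% lower. This count takes only the probe set that stands for each gene. Other probe sets of Fabp4, Fabp5 and Slc27a1 had smaller unadjusted p-values, given below, and no adjusted p was computed for them. An unadjusted p under 0.05 was found for 5 of the 9 (Cd36, Slc27a1, Slc27a4, Fabp4 and Fabp5), and for 26.8% of all genes. The median difference was 0.05 log2 over the 9 members and -0.03 over all genes tested. Within single experiments, arrays of both diets did not overlap for 4 of 9 members in the first VDH15 experiment (1 higher, 3 lower; 40.3% of all genes), for 6 of 9 in SCC25 (4 higher, 2 lower; 35.1%) and for 4 of 9 in the second VDH15 experiment (1 higher, 3 lower; 32%). The share of members was near that of all genes in the first VDH15 experiment and above it in SCC25 and the second VDH15 experiment. These shares are of 9 genes chosen with earlier results known, and they describe those genes only.

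**Figure D1:**
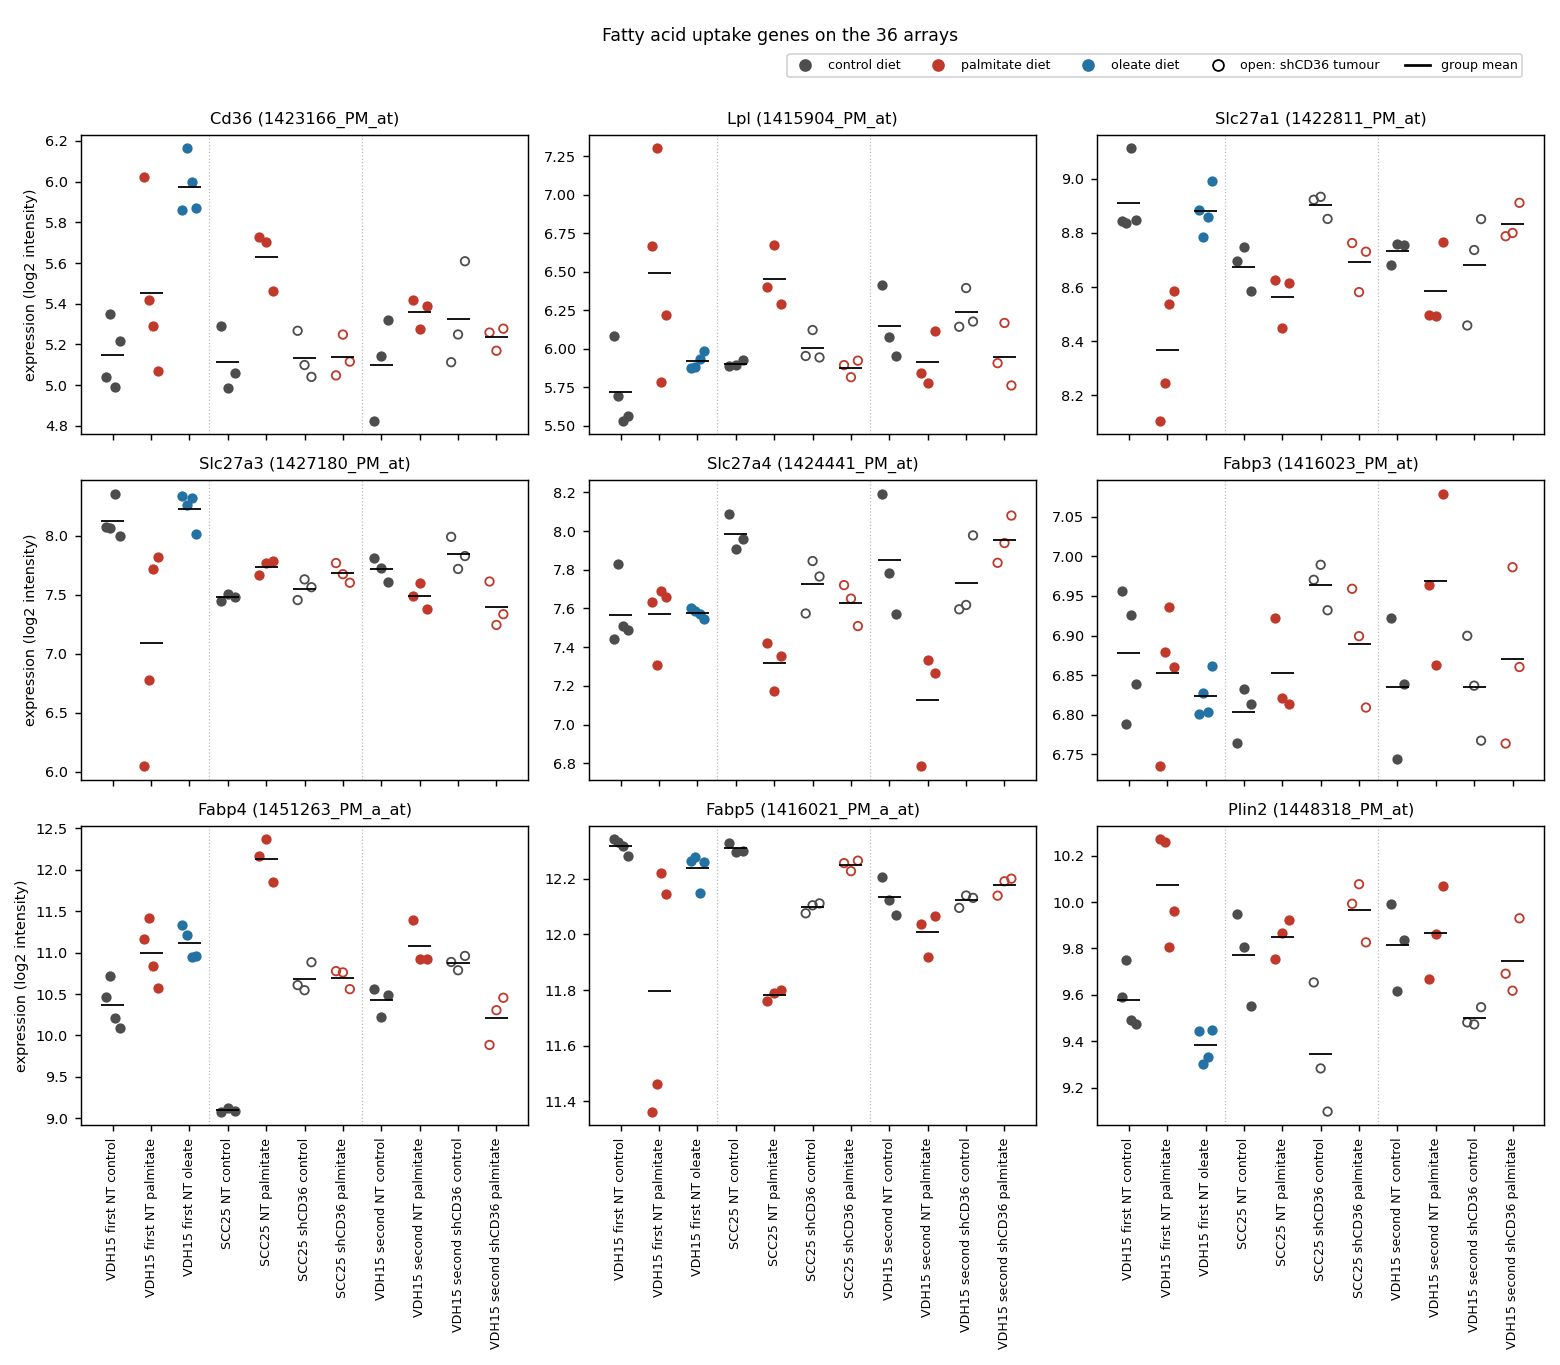
Level of the 9 genes on each of the 36 arrays, as log2 intensity of the probe set named in each panel title. Each point is 1 array, filled for tumours with the non-targeting shRNA (NT) and open for shCD36, the short line is the group mean, and dotted lines part the 3 experiments. Axes do not start at 0 and differ between panels. Fabp4 spans 9.08 to 12.37 and Fabp3 only 6.73 to 7.08.

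On the receptor side stood Cd36, the membrane receptor that gives the tumour knockdown its target. In the first VDH15 experiment its 4 control arrays read 5.04, 5.35, 4.99 and 5.22 log2, and its 4 palmitate arrays 6.02, 5.42, 5.29 and 5.07. The groups overlapped, and the difference of 0.30 ± 0.22 (SE over arrays) was 0.03 without replicates 1 and 2, the palmitate arrays that stood apart. In SCC25 the control arrays read 5.29, 4.99 and 5.06 and the palmitate arrays 5.73, 5.70 and 5.46. Every palmitate array there lay above every control array, a difference of 0.52 ± 0.12 or 1.43-fold. The control arrays of the second VDH15 experiment read 4.83, 5.14 and 5.32 and the palmitate arrays 5.42, 5.27 and 5.39. These overlapped at 1 control array, with a difference of 0.26 ± 0.15. The direction was the same in all 3 experiments, and the fit over the 11 group averages gave 0.36 ± 0.10 log2 (SE, n = 3, adjusted p = 0.0687). Without the 3 arrays that stood apart it was 0.26 (adjusted p = 0.225). In the first VDH15 experiment, where each diet was split over both scan batches, the difference was 0.53 in batch 2 and 0.07 in batch 3.

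Cd36 is reported by 3 probe sets, which did not give 1 picture. The probe set that stands for the gene, 1423166_PM_at, has a mean of 5.34 log2 over the groups, little above the filter level of 5.19. For 1450883_PM_a_at the fitted palmitate difference was 0.11 ± 0.06, with group means of 4.93 to 5.54. For 1450884_PM_at it was 0.04 ± 0.07, with group means of 3.70 to 3.87. In single experiments 1450883_PM_a_at gave 0.03, 0.20 and 0.11, each with overlap, and 1450884_PM_at gave 0.02, 0.15 and -0.04, without overlap in SCC25.

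**Figure D2:**
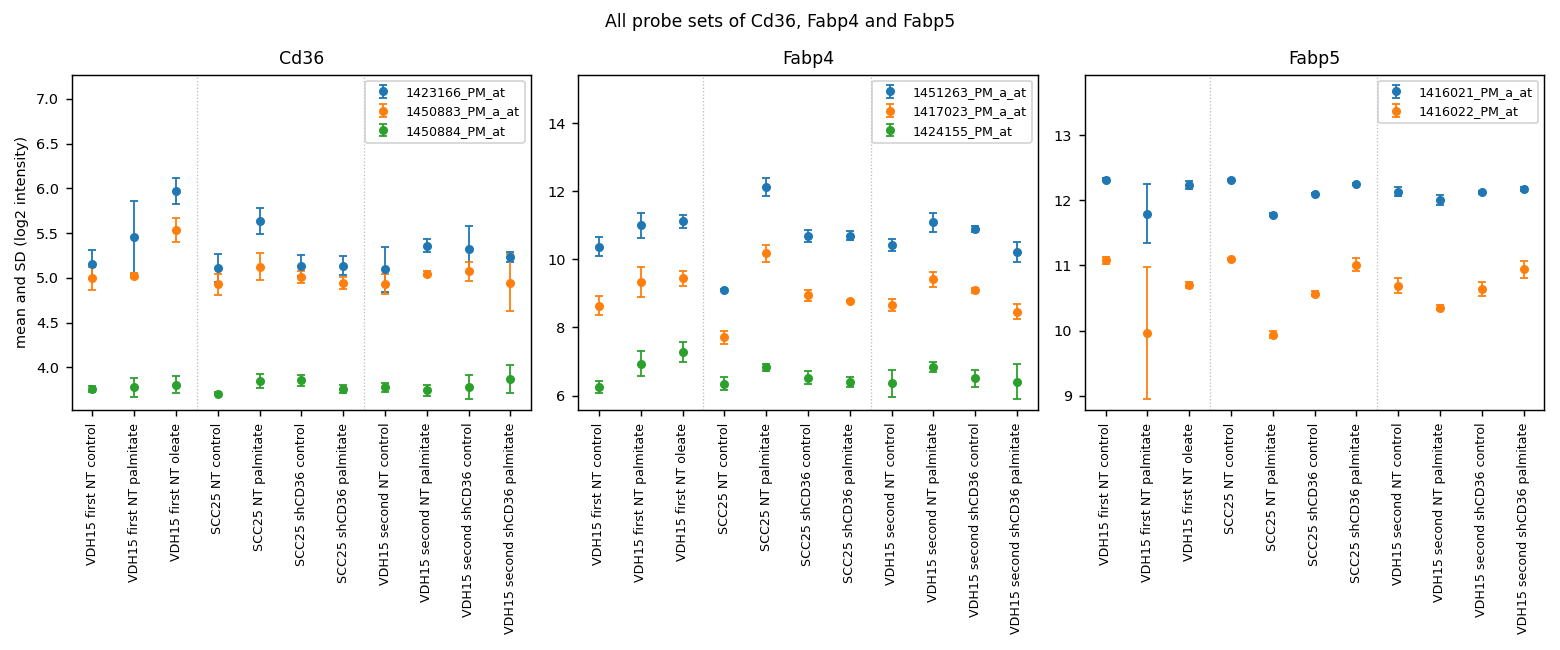
Group means of every probe set that lists Cd36, Fabp4 or Fabp5 alone, in log2 intensity, with bars of SD over the 3 or 4 arrays of a group. NT is the non-targeting shRNA, dotted lines part the experiments, and axes differ between panels. The dimmest Cd36 probe set stays between 3.70 and 3.87 in all groups, while both Fabp5 probe sets have their low means in the non-targeting tumours on palmitate.

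Lpl, the lipase that supplies the fatty acids, differed between experiments. Its palmitate arrays in the first VDH15 experiment read 6.67, 7.30, 5.78 and 6.22 log2 against 6.08, 5.69, 5.53 and 5.56 on control diet. The highest of these, at 7.30, is again 1 of the arrays that stood apart, and the groups overlapped, with a difference of 0.78 ± 0.35 that was 0.28 without both such arrays. In SCC25 the palmitate arrays (6.40, 6.68 and 6.29) all lay above the control arrays (5.89, 5.90 and 5.93), by 0.55 ± 0.12. The second VDH15 experiment turned the order, with 5.84, 5.78 and 6.12 on palmitate against 6.41, 6.08 and 5.95 on control and a difference of -0.23 ± 0.17. The fit gave 0.36 ± 0.19 (adjusted p = 0.280). The other Lpl probe set, 1431056_PM_a_at, had group means of only 4.73 to 4.90 and a fitted difference of 0.05 ± 0.07.

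The 3 transporters of the Slc27 family, also called fatty acid transport proteins, couple uptake to acyl-CoA formation. All had lower averages on palmitate over the 3 experiments, none past the threshold. Slc27a4 read 8.09, 7.91 and 7.96 log2 on control diet and 7.42, 7.18 and 7.36 on palmitate in SCC25, a difference of -0.67 ± 0.09 with no overlap. It read 8.19, 7.78 and 7.57 against 6.79, 7.33 and 7.26 in the second VDH15 experiment, again with no overlap and a difference of -0.72 ± 0.25. In the first VDH15 experiment it did not follow: 7.44, 7.83, 7.51 and 7.49 on control diet against 7.63, 7.31, 7.69 and 7.66 on palmitate, a difference of 0.00 ± 0.13. The fitted difference of Slc27a4 was -0.46 ± 0.16 (adjusted p = 0.136).

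Slc27a1 showed the reverse distribution. Its arrays did not overlap in the first VDH15 experiment, at 8.84, 8.84, 9.11 and 8.85 on control diet against 8.11, 8.25, 8.54 and 8.58 on palmitate. The difference of -0.54 ± 0.13 was -0.35 without the 2 lowest palmitate arrays, which stood apart, and the arrays still did not overlap. In SCC25 and the second VDH15 experiment the differences were -0.11 ± 0.08 and -0.15 ± 0.09, with overlap. The fit gave -0.27 ± 0.11 (adjusted p = 0.184). The second Slc27a1 probe set, 1435658_PM_at, was lower with no overlap in all 3 experiments (-0.49, -0.21 and -0.35). Its fitted difference was -0.35 ± 0.07 (unadjusted p = 0.00229, limma). Slc27a3 changed sign between experiments. On palmitate it read 6.05, 6.78, 7.72 and 7.82 in the first VDH15 experiment, all below the control arrays at 8.07, 8.07, 8.36 and 8.00. Both lowest values are from arrays that stood apart. Without them the difference of -1.03 ± 0.43 was -0.35, and the fitted difference of -0.33 ± 0.23 (adjusted p = 0.415) was -0.11 without the 3 such arrays. In SCC25 the palmitate arrays (7.67, 7.77 and 7.78) were above the control arrays (7.45, 7.51 and 7.48), and in the second VDH15 experiment (7.49, 7.60 and 7.38) they were below them (7.81, 7.73 and 7.60).

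Of the carriers within the cell, Fabp4 spanned the widest range of group means among the members. The range was 3.03 log2, from 9.10 in SCC25 non-targeting tumours on control diet to 12.13 on palmitate in the same experiment. Only 0.335% of all genes tested had a range as wide, and the median gene had 0.37. The SCC25 control arrays read 9.08, 9.12 and 9.08 and the palmitate arrays 12.16, 12.37 and 11.86. They were far apart, a difference of 3.03 ± 0.15 or 8.18-fold. In the first VDH15 experiment the control arrays read 10.46, 10.71, 10.21 and 10.09 and the palmitate arrays 11.17, 11.41, 10.84 and 10.57, which overlapped at 1 array of each diet (difference 0.63 ± 0.23, and 0.34 without both arrays that stood apart). In the second VDH15 experiment the arrays did not overlap, at 10.56, 10.22 and 10.49 on control diet and 11.39, 10.93 and 10.92 on palmitate (difference 0.66 ± 0.19). Fabp4 was thus higher on palmitate in all 3 experiments, with a fitted difference of 1.44 ± 0.46 (adjusted p = 0.103). Leaving out SCC25 brought it to 0.64 (adjusted p = 0.184), and the size therefore rests on that experiment. Without the 3 arrays that stood apart it was 1.29 (adjusted p = 0.165).

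The probe sets of Fabp4 agreed in direction and differed in size. In SCC25 the palmitate difference was 2.47 for 1417023_PM_a_at and 0.48 for 1424155_PM_at. In the first VDH15 experiment the 3 probe sets gave 0.63 to 0.70, and in the second 0.46 to 0.76. In the second, 1424155_PM_at (0.46) overlapped between the diets. The fitted difference was 1.31 ± 0.33 for 1417023_PM_a_at and 0.54 ± 0.07 for 1424155_PM_at (unadjusted p = 0.00609 and 0.000117, limma). Endothelial markers moved with Fabp4: their group mean was 7.81 in SCC25 on control diet and 9.82 on palmitate, the lowest and the highest of the 11 groups. On palmitate 5 of 15 endothelial markers were called higher in non-targeting tumours, against 3.65% of all genes, and none lower. All 15 had a positive fitted difference, with a median of 1.52 log2. Of the adipocyte markers, 0 of the 3 tested were called, and Adipoq and Lep lay below the filter level. Macrophage markers were called higher in 2 of 11 cases. The part of endothelial and macrophage RNA in the Fabp4 difference was not tested.

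Fabp5, the epidermal binding protein, was lower on palmitate in all 3 experiments, with no overlap in any of them. The first VDH15 experiment gave 12.34, 12.33, 12.32 and 12.28 on control diet and 11.36, 11.46, 12.22 and 12.14 on palmitate. The 2 low palmitate arrays are those that stood apart. The difference of -0.52 ± 0.22 was -0.14 without them, still with no overlap. SCC25 gave 12.33, 12.30 and 12.30 against 11.76, 11.79 and 11.80, a difference of -0.53 ± 0.01. In the second VDH15 experiment the arrays stood close, at 12.20, 12.12 and 12.07 against 12.04, 11.92 and 12.07, a difference of -0.13 ± 0.06 in which the nearest arrays of both diets read 12.07. The fit gave -0.39 ± 0.09 (adjusted p = 0.0561), and -0.27 (adjusted p = 0.129) without the 3 arrays that stood apart. The second probe set, 1416022_PM_at, had the larger differences, of -1.12, -1.17 and -0.34 in the 3 experiments, again without overlap. Its fitted difference was -0.88 ± 0.16 (unadjusted p = 0.00103, limma). Keratinocyte markers moved the same way, with a median of -0.44 log2. Of these markers 3 of 14 were called lower on palmitate, against 3.27% of all genes, and none higher. Their part in the Fabp5 difference was not tested.

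Fabp3, the heart-type binding protein, was flat. Its group means lay between 6.80 and 6.97 log2, a range that 93.5% of all genes tested matched or exceeded, and the palmitate difference was 0.05 ± 0.07 (adjusted p = 0.698). A further probe set, 1444844_PM_at, lists Fabp3 with a second gene and had group means of 6.11 to 6.30.

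Plin2, the droplet coat, had non-overlapping arrays on palmitate and control diet in 1 experiment. In the first VDH15 experiment it read 9.59, 9.75, 9.49 and 9.47 on control diet and 10.27, 10.26, 9.81 and 9.96 on palmitate, a difference of 0.50 ± 0.13 with no overlap. The 2 highest palmitate arrays stood apart, and without them the difference was 0.31, again with no overlap. In SCC25 and the second VDH15 experiment the differences were 0.08 ± 0.13 and 0.05 ± 0.16, within the spread of the arrays. The fitted difference was 0.21 ± 0.11 (adjusted p = 0.298).

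**Figure D3:**
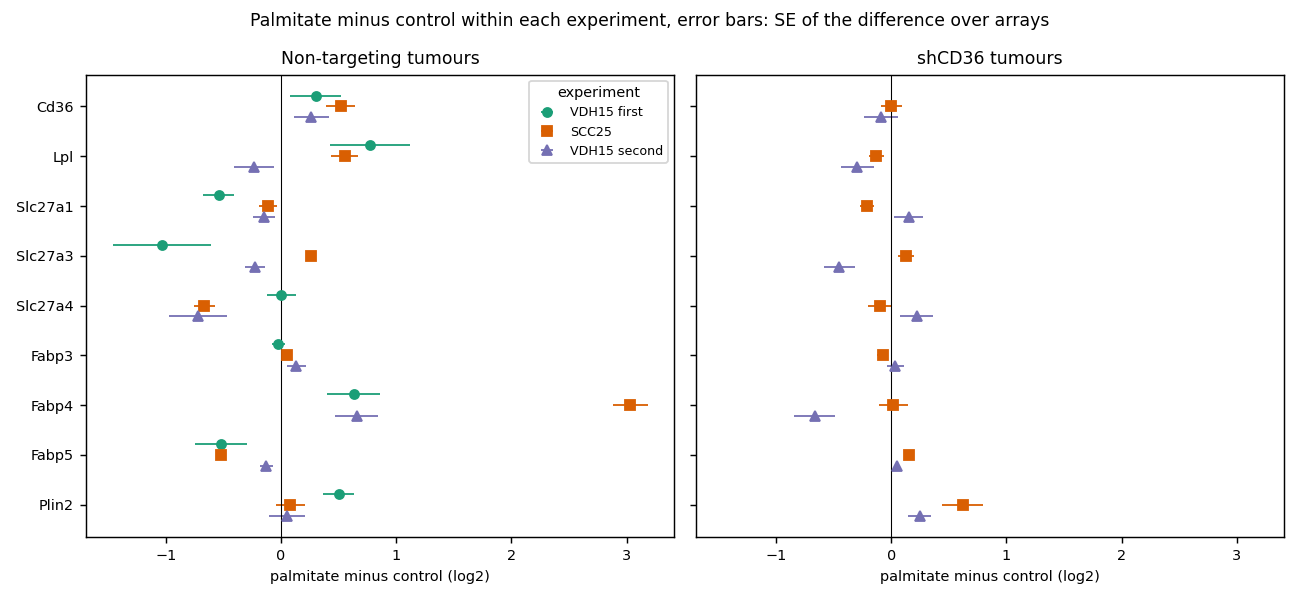
Difference between palmitate and control diet within each experiment, in log2, for tumours with the non-targeting shRNA (left) and with shCD36 (right, 2 experiments) on 1 common axis. Points are differences of group means and bars are SE over the arrays of both groups. In non-targeting tumours Fabp4 and Cd36 lie right of 0 and Fabp5 left of 0 in all 3 experiments, while Slc27a3 and Lpl lie on both sides.

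The next comparisons asked whether the diet response of the stroma and its levels differed when the tumour cells carried shCD36. In shCD36 tumours the diet difference of Cd36 was near 0, Fabp4 was level in SCC25 and lower on palmitate in the second VDH15 experiment, and Plin2 was higher on palmitate in both. For palmitate over control in shCD36 tumours 0 of 9 members were called by limma, as were 0% of all genes, and 1 of 9 members (Plin2) had an unadjusted p under 0.05, against 2.20% of genes. Arrays did not overlap for 4 of 9 members in SCC25 (22.7% of genes) and for 3 of 9 in the second VDH15 experiment (20.3%). In SCC25 Plin2 and Fabp5 (0.15 ± 0.02) were higher on palmitate, and Lpl (-0.13 ± 0.07) and Slc27a1 (-0.21 ± 0.06) were lower. In the second VDH15 experiment Plin2 was higher, and Fabp4 and Slc27a3 (-0.45 ± 0.14) were lower. Fabp5 differed there by 0.05 ± 0.02, with overlap.

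Cd36 read 5.27, 5.10 and 5.04 log2 on control diet and 5.05, 5.25 and 5.12 on palmitate in SCC25 shCD36 tumours. In the second VDH15 experiment it read 5.11, 5.25 and 5.61 against 5.26, 5.17 and 5.28. The diets overlapped in both, with differences of 0.00 ± 0.09 and -0.09 ± 0.15 and a fitted value of -0.04 ± 0.12. Fabp4 in SCC25 shCD36 tumours read 10.61, 10.55 and 10.88 on control diet and 10.78, 10.76 and 10.56 on palmitate. Its diet difference there was 0.02 ± 0.13, where that of non-targeting tumours was 3.03 ± 0.15. It was lower on palmitate in the second VDH15 experiment, at 9.89, 10.30 and 10.45 against 10.89, 10.79 and 10.96. The difference was -0.66 ± 0.18 with no overlap. In that experiment 1417023_PM_a_at gave -0.62 without overlap and 1424155_PM_at only -0.10, with overlap. In SCC25 these probe sets gave -0.16 without overlap and -0.13 with overlap. The fitted value of Fabp4 was -0.32 ± 0.56 (adjusted p = 1.00). Plin2 read 9.99, 10.08 and 9.83 on palmitate against 9.65, 9.28 and 9.10 on control diet in SCC25. Its arrays in the second VDH15 experiment read 9.69, 9.62 and 9.93 against 9.48, 9.47 and 9.55. Palmitate arrays were above control arrays in both, and the fitted difference was 0.43 ± 0.14 (adjusted p = 1.00).

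The test of the difference between both diet effects, shCD36 minus non-targeting, called 0 of 9 members and 0% of all genes, and 3 of 9 members had an unadjusted p under 0.05, against 15.7% of genes. For Fabp4 the difference of effects was -1.76 ± 0.72 log2 (adjusted p = 0.312). For Fabp5 it was 0.49 ± 0.15 (adjusted p = 0.219) and for Cd36 -0.40 ± 0.15 (adjusted p = 0.291). The other Cd36 probe sets gave smaller values, -0.21 ± 0.10 for 1450883_PM_a_at and -0.05 ± 0.11 for 1450884_PM_at. Those of Fabp4 gave -1.70 ± 0.52 for 1417023_PM_a_at and -0.66 ± 0.11 for 1424155_PM_at (unadjusted p = 0.0151 and 0.000581, limma). For Fabp5, 1416022_PM_at gave 1.25 ± 0.25 (unadjusted p = 0.00186, limma). No adjusted p was computed for these probe sets. Slc27a4 (0.52 ± 0.26, adjusted p = 0.391) and Lpl (-0.58 ± 0.30, adjusted p = 0.410) also had unadjusted p-values under 0.1. By the probe sets that stand for the genes, none of the 9 diet effects was therefore shown to differ between the shRNAs. Endothelial markers gave a median difference of effects of -1.49 log2 and keratinocyte markers one of 0.49, and their part was not tested.

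On palmitate diet itself, stroma of shCD36 tumours had lower Fabp4 and Cd36 and higher Fabp5 and Slc27a4 than stroma of non-targeting tumours, with no member called against 0.374% of all genes. An unadjusted p under 0.05 was found for 2 of 9 members, Cd36 and Fabp5, and for 18.4% of genes. Arrays did not overlap for 5 of 9 members in SCC25 (28.8% of genes) and for 4 of 9 in the second VDH15 experiment (39.4%). Fabp4 was lower in shCD36 tumours by -1.43 ± 0.17 in SCC25 and -0.87 ± 0.23 in the second VDH15 experiment. There was no overlap in either, and the fitted value was -0.95 ± 0.53 (adjusted p = 0.404). Its probe set 1417023_PM_a_at gave -1.39 and -0.95 without overlap, and 1424155_PM_at gave -0.43 and -0.42, the latter with overlap. Cd36 differed by -0.49 ± 0.10 with no overlap in SCC25 and by -0.13 ± 0.06 with overlap in the second VDH15 experiment. Its fitted value was -0.29 ± 0.11 (adjusted p = 0.234), against -0.12 ± 0.08 for 1450883_PM_a_at and 0.02 ± 0.08 for 1450884_PM_at. Fabp5 read 12.26, 12.23 and 12.27 in SCC25 shCD36 tumours on palmitate, 0.47 ± 0.02 above the non-targeting arrays. In the second VDH15 experiment it read 12.14, 12.19 and 12.20, higher by 0.17 ± 0.05, and the fitted value was 0.35 ± 0.11 (adjusted p = 0.170). Slc27a4 was higher by 0.31 ± 0.10 and 0.82 ± 0.19, without overlap (fitted 0.45 ± 0.19, adjusted p = 0.281). Slc27a1 was higher by 0.13 ± 0.08 and 0.25 ± 0.10, the latter without overlap (fitted 0.26 ± 0.13, adjusted p = 0.353). These differences share the palmitate arrays of non-targeting tumours with the first comparison. In the same contrast all 15 endothelial markers were lower in shCD36 tumours, with a median of -1.17 log2, and 8 of 9 fibroblast markers were lower, with a median of -1.23. Keratinocyte markers were higher in 13 of 14 cases, with a median of 0.30. Their part in these differences was not tested.

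On control diet Fabp4 was the member that differed most between shRNAs. It was higher in shCD36 tumours by 1.58 ± 0.10 log2 in SCC25 and by 0.45 ± 0.12 in the second VDH15 experiment. There was no overlap in either, and the fitted value was 0.81 ± 0.53 (adjusted p = 0.991). Its probe set 1417023_PM_a_at gave 1.24 and 0.43, also without overlap, while 1424155_PM_at gave only 0.18 and 0.15, with overlap in both experiments. Plin2 was lower, by -0.43 ± 0.20 with overlap and by -0.31 ± 0.11 without (fitted -0.30 ± 0.13, adjusted p = 0.991), and Cd36 differed by 0.02 ± 0.11 and 0.23 ± 0.21 (fitted 0.11 ± 0.11, adjusted p = 0.991). All 15 endothelial markers were higher in shCD36 tumours on this diet, with a median of 0.29 log2, and their part was not tested. Called were 0 of 9 members and 0% of genes, and an unadjusted p under 0.05 was found for 0 members and 3.39% of genes. Arrays did not overlap for 6 of 9 members in SCC25 (31.1% of genes) and for 2 of 9 in the second VDH15 experiment (20.2%). Fabp5 in SCC25 read 12.08, 12.10 and 12.11 in shCD36 tumours, -0.21 ± 0.01 from the non-targeting arrays, and in the second VDH15 experiment it read 12.10, 12.14 and 12.13, a difference of -0.01 ± 0.04.

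The oleate diet was given in the first VDH15 experiment only, so its fitted values rest on n = 1 and take their error wholly from the spread of the other groups. Cd36 had its highest level of all 11 groups there, at 5.97 ± 0.14 log2 (SD over 4 arrays). Fabp4 was also higher than on control diet, Plin2 and Fabp5 were lower, and the remaining 5 members overlapped with control diet. The fit called 0 of 9 members and 0% of all genes, and 1 of 9 members, Cd36, had an unadjusted p under 0.05, against 1.75% of genes. Arrays of oleate and control diet did not overlap for 4 of 9 members (2 higher, 2 lower), against 15.6% of genes.

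The 4 oleate arrays of Cd36 read 5.86, 6.16, 5.998 and 5.87, all above the 4 control arrays, which reached 5.35. The difference was 0.82 ± 0.11 log2 or 1.77-fold, at 1.00 in scan batch 2 and 0.65 in scan batch 3. The fitted value was 0.85 ± 0.15 (adjusted p = 1.00). The probe set 1450883_PM_a_at was higher by 0.54 with no overlap, and 1450884_PM_at by 0.05. In order of level, oleate came first, followed by palmitate in the non-targeting tumours of SCC25 (5.63 ± 0.15), the first VDH15 (5.45 ± 0.41) and the second VDH15 experiment (5.36 ± 0.08). The other 7 groups lay between 5.10 and 5.32. The oleate arrays did not overlap with those of the next group in this order, while each later group overlapped with its neighbour. Palmitate minus oleate within the first VDH15 experiment was -0.52 ± 0.22 with overlap, since palmitate replicate 1 reached 6.02 (fitted -0.49 ± 0.15, adjusted p = 0.303). Without both arrays that stood apart it was -0.79 with no overlap. Endothelial markers had a mean of 9.10 on oleate, 8.34 on control diet and 9.72 on palmitate in this experiment, macrophage markers 5.66, 5.54 and 6.90 and adipocyte markers 5.29, 5.28 and 5.26. All 15 endothelial markers were higher on oleate than on control diet, with a fitted median of 0.83. The part of these cell types in the Cd36 and Fabp4 differences was not tested.

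Fabp4 read 11.33, 11.22, 10.95 and 10.96 on oleate, above every control array by a difference of 0.74 ± 0.17 (fitted 1.15 ± 0.72, adjusted p = 1.00). Palmitate minus oleate was -0.11 ± 0.21 with overlap, -0.41 without overlap when both arrays that stood apart were left out, and 0.29 ± 0.72 in the fit (adjusted p = 0.908), so its sign was not settled. For the other Fabp4 probe sets palmitate minus oleate was -0.11 for 1417023_PM_a_at (fitted 0.20) and -0.35 for 1424155_PM_at (fitted -0.42), both with overlap. Plin2 moved the other way from palmitate. It read 9.44, 9.30, 9.33 and 9.45 on oleate, all below the control arrays (difference -0.19 ± 0.07) and below the palmitate arrays (palmitate minus oleate 0.69 ± 0.12, fitted 0.55 ± 0.18, adjusted p = 0.326). Slc27a1 and Slc27a3, whose palmitate arrays lay below the control arrays, overlapped with control diet on oleate, with differences of -0.03 ± 0.08 and 0.11 ± 0.11. Fabp5 on oleate read 12.26, 12.28, 12.15 and 12.26, a difference from control of -0.08 ± 0.03. Palmitate over oleate called 0 of 9 members, against 0.039% of all genes, and 3 of 9 members (Cd36, Fabp5 and Plin2) had an unadjusted p under 0.05, against 12.4% of genes. Arrays did not overlap for 3 of 9 members, Plin2, Slc27a1 and Slc27a3 (36.5% of genes). Palmitate minus oleate was fitted at -0.37 ± 0.18 for Slc27a1 (adjusted p = 0.451), -0.79 ± 0.37 for Slc27a3 (adjusted p = 0.448) and -0.38 ± 0.15 for Fabp5 (adjusted p = 0.378). Without the 3 arrays that stood apart these were -0.24, -0.34 and -0.12.

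**Figure D4:**
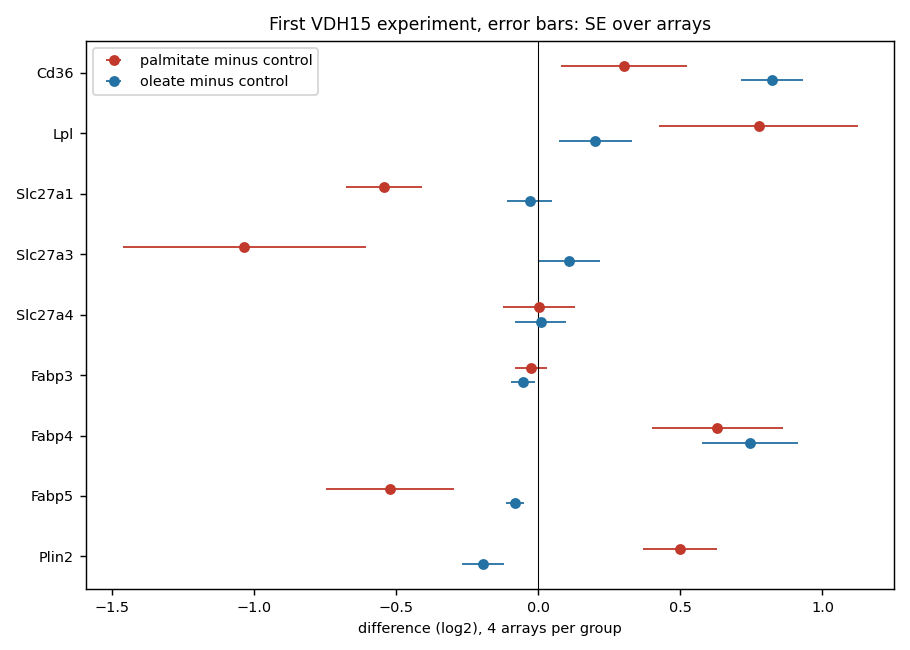
Differences from control diet in the first VDH15 experiment, in log2, for palmitate and for oleate, with bars of SE over 4 arrays per group. Both diets share the control arrays. Cd36 lies farther from 0 on oleate (0.82) than on palmitate (0.30), Plin2 lies on opposite sides, and Slc27a1 and Slc27a3 are near 0 on oleate.

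Among the members with a RefSeq promoter window, Cd36 and Plin2 held AGGTCA, the core motif of PPAR and retinoid X receptor response elements. Their windows are shown because the motif was found in them, and Cd36 was higher and Plin2 lower on oleate than on control diet. Fabp4 and Fabp5, whose arrays on oleate and control diet did not overlap either, were not searched here. The windows run from 250 bases before to 50 after a start site in GRCm38.p6, and 7 of the 10 members had at least 1, with 9 windows in all. The motif, 6 bases on either strand, was found in 2 of the 9 windows and in 16.3% of the 32851 promoters of the table. Both members are on the minus strand, and the match, in capitals, reads TGACCT in the direction of transcription, at base -228 for Cd36 and -218 for Plin2 from the start site.
Cd36, chr5:17835847-17836146, minus strand: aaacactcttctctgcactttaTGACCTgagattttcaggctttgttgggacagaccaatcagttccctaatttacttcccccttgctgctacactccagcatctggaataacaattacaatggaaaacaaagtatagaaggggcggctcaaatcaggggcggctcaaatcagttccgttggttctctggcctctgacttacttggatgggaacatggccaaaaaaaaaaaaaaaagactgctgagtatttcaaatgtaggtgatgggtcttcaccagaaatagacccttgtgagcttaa
Plin2, chr4:86670010-86670309, minus strand: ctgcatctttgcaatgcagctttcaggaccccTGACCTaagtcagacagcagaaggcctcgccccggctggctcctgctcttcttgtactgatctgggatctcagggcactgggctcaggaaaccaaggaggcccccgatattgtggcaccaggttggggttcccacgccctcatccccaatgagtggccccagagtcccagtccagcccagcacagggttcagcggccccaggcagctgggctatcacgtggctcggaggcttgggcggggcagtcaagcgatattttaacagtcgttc
The direct repeat of the core motif with 1 base between, the form the receptor pair is known to bind, was in none of the 9 windows and in 13 promoters of the table (0.0396%). These matches describe the letters of 1 start site each and nothing about binding.

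Other genes of the same pathways gave 5 calls on palmitate in non-targeting tumours, of 56 tested out of 83 listed genes. Of all genes tested 6.92% were called there, 3.65% higher and 3.27% lower. The pathway genes gave no call in the other comparisons. Their median difference of -0.03 log2 equalled that of all genes. Among lipoprotein lipases and receptors 1 of 13 was called higher: Scarb1, the HDL receptor of the CD36 family, by 0.60 ± 0.09 (adjusted p = 0.0213), with group means of 6.91, 6.93 and 7.05 on control diet and 7.62, 7.58 and 7.50 on palmitate. Its level on oleate was 7.44. Angptl4, an inhibitor of Lpl, had 0.71 ± 0.17 (adjusted p = 0.0546). Among genes of droplets, storage and lipolysis 1 of 17 was called higher: Lipa, the lysosomal acid lipase, by 0.78 ± 0.14 (adjusted p = 0.0336), and Mgll, which cleaves monoglycerides, had 0.54 ± 0.12 (adjusted p = 0.0510). Of the caveolae genes and CD36 partners, Cav1, the main coat protein of caveolae, rose by 0.57 ± 0.13 (adjusted p = 0.0497) as 1 of 8, and Cavin2 had 0.82 ± 0.21 (adjusted p = 0.0616). Cav1 is abundant in endothelium, whose markers moved with it, and their part was not tested.

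Both calls in the lower direction were carriers, 2 of 4 tested, against 3.27% of all genes called lower. Fabp6, known as the ileal bile acid binding protein, fell by 0.78 ± 0.08 log2 (adjusted p = 0.0146), and Dbi, the acyl-CoA binding protein, fell by 0.43 ± 0.07 (adjusted p = 0.0252). Fabp6 was at 7.74, 7.78 and 7.63 on control diet and at 6.91, 7.01 and 6.89 on palmitate in the 3 experiments. In shCD36 tumours it was at 7.46 and 7.54 on control diet and at 7.49 and 7.68 on palmitate. Among acyl-CoA synthetases, which activate fatty acids, 0 of 5 were called, with Acsbg1 at -0.69 ± 0.18 (adjusted p = 0.0658) and Acsl5 at -0.23 ± 0.07 (adjusted p = 0.113) first by p. Among fatty acid receptors and nuclear regulators 0 of 9 were called, with the PPAR partner Rxra at -0.32 ± 0.12 (adjusted p = 0.155) and Ppard at -0.16 ± 0.07 (adjusted p = 0.175) first. Pparg differed by 0.13 ± 0.11 (adjusted p = 0.520).

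Across the 11 group averages the members did not move as 1 set. Cd36 and Fabp4 had a Pearson r of 0.63, Lpl and Fabp5 one of -0.87, Fabp4 and Slc27a4 one of -0.75 and Slc27a1 and Plin2 one of -0.79. The averages share diets, batches and cell mixtures, and these values describe 11 points only. Most like Cd36 among genes past the filter were Usp27x (r = 0.95), Itpa (0.91), Aopep (0.89) and the ion channel gene Trpv4 (0.86), and without the oleate group these fell to between 0.62 and 0.85. Most like Fabp4 were the water channel gene Aqp1 (0.97), the P-selectin gene Selp (0.95), Rnf125 (0.94) and Galnt15 (0.94). Most like Fabp5 were the keratin gene Krt6b (0.99), the tight junction gene Cldn4 (0.98), Rhov (0.97) and Brap (0.96).

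Against the marker means, Fabp4 had r = 0.86 with endothelial, 0.74 with fibroblast, 0.31 with macrophage and -0.47 with adipocyte markers. Fabp5 had r = 0.95 with keratinocyte and -0.91 with fibroblast markers. Cd36 had r = 0.55 with endothelial, 0.04 with macrophage and -0.38 with adipocyte markers. Slc27a4 had r = -0.81 with endothelial markers, and Plin2 had r = 0.74 with macrophage markers. On palmitate in non-targeting tumours 4 of 9 fibroblast, 2 of 6 Schwann cell and 1 of 7 red blood cell and platelet markers were called higher. Called lower was 1 of 6 neuron markers, and 0 of 8 skeletal muscle markers were called. Of all genes tested 3.65% were called higher and 3.27% lower. The Schwann cell list went both ways, with 3 fitted differences above 0, 3 below 0 and a median of -0.01 log2. Outside that comparison 1 marker was called, 1 of 9 fibroblast markers. It was lower in shCD36 than in non-targeting tumours on palmitate diet, where 0.374% of all genes were called.

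**Figure D5:**
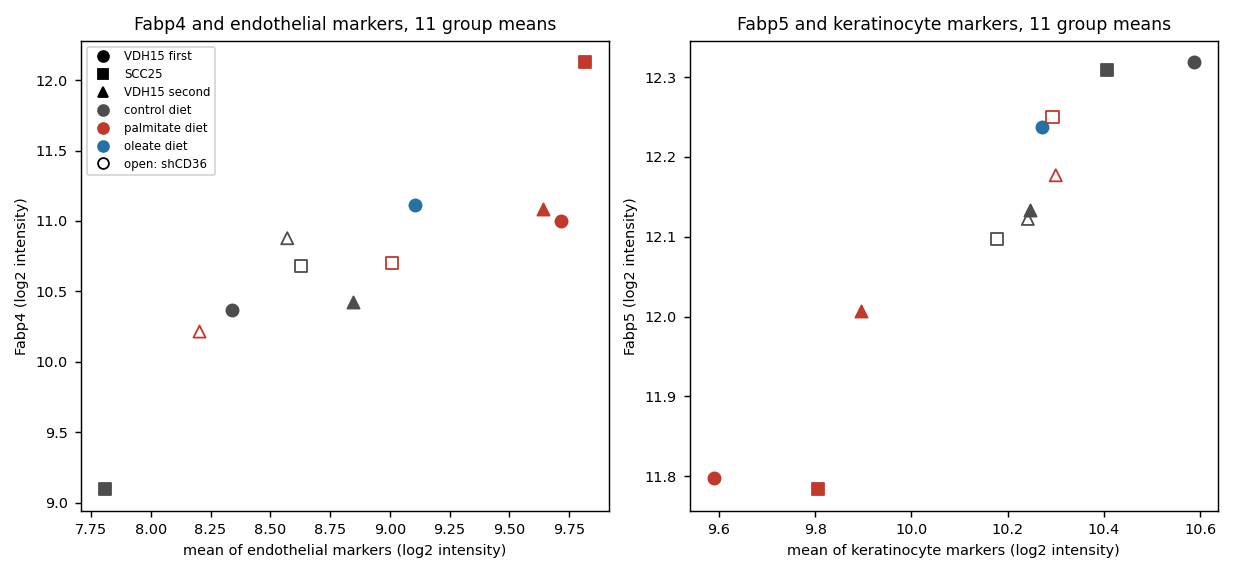
Group means of Fabp4 against the mean of the endothelial markers (left) and of Fabp5 against the mean of the keratinocyte markers (right), in log2 intensity, for the 11 groups. Shapes mark the experiment, colours the diet, and open symbols shCD36 tumours. Fabp4 is lowest (9.10) and highest (12.13) where the endothelial mean is lowest (7.81) and highest (9.82).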

How the data were processed

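The deposited series table holds log2 intensities of 36 mouse arrays (Affymetrix), computed by RMA with affy per the submitters' processing notes. Coefficients of hybridization batch, scan batch and cell line were below 1e-06 in 100% of 45141 probe sets with diet and shRNA in the model. The deposited values had thus been adjusted for these. No further correction was made before the fit, whose experiment term coincides with hybridization batch. The platform annotation gave 1 gene for 28898 probe sets, 28689 of them matched to a RefSeq gene. For each gene the probe set with the highest mean stood, and the lowest 25% of genes by mean were left out. The unit of the limma fit (version 3.58.1 in R 4.3.3) was the mean of a group's arrays, 11 in all, with terms for condition and experiment, 4 residual and 2.70 prior degrees of freedom. P-values of each of 7 contrasts were adjusted by Benjamini-Hochberg over 12823 genes and called under 0.05. Fitted values outside palmitate over control in non-targeting tumours are printed for Cd36 and Fabp4 and for members with an unadjusted p under 0.1. Because the first VDH15 experiment holds no shCD36 groups, fitted values can differ from plain differences within experiments, whose SE covers the arrays only. The fit was tested on simulated data. The members, the 6 lists of pathway genes and the 9 marker lists were chosen with earlier results of these data known. Genes outside the members were named by rule: every called pathway gene, the 2 smallest p of a list with fewer calls, and the 4 highest correlations for Cd36, Fabp4 and Fabp5. Pparg and the marker genes Adipoq, Lep, Nefl, Nefm and Nefh were added after their values were seen. Alternatives were the experiment term, all arrays with duplicateCorrelation, filters, probe set choice, quantile normalization, the prior, scan batches, and leaving out arrays or experiments. Precision is limited by the number of experiments, 3 at most.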

Additional observations from a re-analysis of the deposited data

Results flagged for a closer look

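Among sets of 4 arrays, 27 combinations of member and group were examined for 1 array far from the other 3, and 4 were found, where chance gives about 1 in 20. Slc27a1 read 9.11 on control replicate 3 of the first VDH15 experiment. Slc27a4 read 7.83 on control replicate 2 and 7.31 on palmitate replicate 2 of that experiment. Fabp5 read 12.1 on its oleate replicate 3. The palmitate effect on Fabp5 differed between shCD36 and non-targeting tumours by 0.49 log2 in the interaction term, in opposite directions in both experiments that hold the 2 shRNAs, but the adjusted p of 0.219 did not pass the threshold.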

How the results depend on the processing

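With 3 experiments at most and 4 residual degrees of freedom, calls on the members depended on how the spread was estimated. For palmitate against control diet with the non-targeting shRNA, the count of members called was 0 in the reported fit and 3 with no replicate block, that is with the experiment term left out (Cd36 at 0.36, adjusted p = 0.0144, Fabp4 and Fabp5). It was 5 with all arrays under duplicateCorrelation (Cd36 at 0.36, adjusted p = 0.0469, Slc27a1, Slc27a4, Fabp4 and Fabp5) and 4 when the array number was added as a replicate block (the same without Cd36). These fits called 3001, 3052 and 2996 of all genes against 887, and the last 2 count arrays labelled technical replicates as samples. The fit with no replicate block leaves the experiment uncounted, although the deposited values were already adjusted for hybridization batch. Its p-values can therefore be too small. The count was 1, Fabp5, with the mean of all probe sets, with quantile normalization and with an intensity trend and robust prior. Leaving out 1 array at a time gave 0 to 1 members, the 1 without the second VDH15 non-targeting control replicate 3. For shCD36 over non-targeting on palmitate the count was 1 with no replicate block (Fabp5) and 1 under duplicateCorrelation with or without the array number block (Fabp4). For the difference of the palmitate effect it was 1 under duplicateCorrelation with or without that block (Fabp4), and for palmitate over oleate 1 with no replicate block (Cd36). Signs turned when 1 biological replicate was left out: Slc27a3 on palmitate ranged from -0.63 to 0.017 (without replicate 1). For palmitate in shCD36 tumours Cd36 ranged from -0.09 to 0.0019 and Fabp4 from -0.66 to 0.020, both highest without replicate 3. Cd36 for shCD36 on control diet ranged from -0.031 (without replicate 3) to 0.24, and Fabp4 for palmitate over oleate from -0.11 (without replicate 2) to 0.49. Leaving out 1 array at a time gave Cd36 for palmitate in shCD36 tumours as -0.096 to 0.028. All genes called on palmitate in non-targeting tumours fell from 887 to 34 with the groups of that comparison alone, to 224 without biological replicate 1 and to 0 without replicate 2 or 3, and to 599 without the 3 arrays that stood apart. Same-numbered arrays of an experiment did not deviate together (r -0.30 to 0.34, median 0.01). This does not settle whether the numbers pair arrays, since paired arrays need not share a deviation. Oleate comparisons could not be fitted with their groups alone or without biological replicate 1.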
